A study of Mus musculus with 4 samples.

Results

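The genes described here encode the ligands and receptors of the axon guidance families, measured in embryonic mouse epidermis with activated beta-catenin. They were taken by symbol: every probe set annotated to 1 gene whose symbol begins with Sema, Plxn, Epha, Ephb, Efn, Robo, Slit and a digit, or Unc5, or is Nrp1, Nrp2, Ntn1 or Ntn4. The rule found 151 probe sets of 68 genes, out of 34945 probe sets of 18193 genes. It also took 3 genes by their letters alone: Unc50 encodes a Golgi membrane protein, Unc5cl a death-domain protein that is no netrin receptor, and Plxna4os1 a transcript opposite Plxna4. Mutant embryos carried KRT14-Cre and Ctnnb1(Ex3)fl/+, a heterozygous floxed allele of the beta-catenin gene that loses exon 3 where Cre is active, and the reference embryos were control littermates whose alleles the labels do not give. There were 2 mutant and 2 control arrays, each with RNA of 1 E15.5 embryo, from dorsal skin whose epidermis had been parted from the dermis with dispase. The KRT14 promoter is active in the basal layer of stratified epithelia and in the follicles that grow from it, so the allele was altered in those cells and their descendants. RNA was hybridised to the Affymetrix Mouse Genome 430 2.0 array, on which each transcript is read by groups of short oligonucleotides called probe sets. Array signals of different probe sets are not on a common scale, so levels were compared between groups and never between genes.

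Axon guidance cues are proteins that steer growing nerve processes, and the same families act on cell adhesion, cell sorting and vessel growth in many tissues. Semaphorins signal through plexins, and the secreted class 3 semaphorins mostly need a neuropilin as the binding partner of the plexin. Ephrins are bound to the membrane and signal through Eph receptor tyrosine kinases on the neighbouring cell, while the ephrin-bearing cell can be signalled to in return. Slits are secreted ligands of Robo receptors, and netrins are secreted laminin-related ligands of Unc5 receptors, Dcc and neogenin. In skin these proteins are known from the patterning of sensory nerves, from melanoblasts and vessels, and from the epithelial buds of hair follicles.

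The members changed in both directions. Of 24 tested receptors 13 rose, led by Nrp2, Unc5b and Unc5c, whereas the largest fall was of a ligand, Sema6d. Testing took in probe sets brighter than the 40th percentile of the array on 2 or more of the 4 arrays, and the brightest tested probe set stood for its gene. Of the 68 genes, 53 were tested and 15 were dim. In the limma fit over 28434 probe sets (Benjamini-Hochberg adjusted p, threshold 0.05) 21 genes were higher in mutant epidermis, 18 were lower and 14 did not pass. Over all 12469 genes tested, 45.1% passed, 20.6% upward and 24.5% downward. By at least 2-fold, with genes below background in a group taken at the lowest fold their background allows, 16 members rose and 7 fell, where 19.5% of all tested genes passed that limit, 10.0% upward and 9.48% downward. The median change of the tested members was -0.04 on the log2 scale, against -0.06 over all genes tested, and the median size of change without its sign was 0.86, against 0.45. Of the 53 tested members, 7 were not above background on both arrays of a group and so passed the filter through the other group alone. Among the 46 others 15 rose and 17 fell, 69.6% of them, against 43.4% of the 11596 such genes in all. Each group had 2 arrays, so the calls rest on the spread that limma pools over probe sets.

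**Figure D1:**
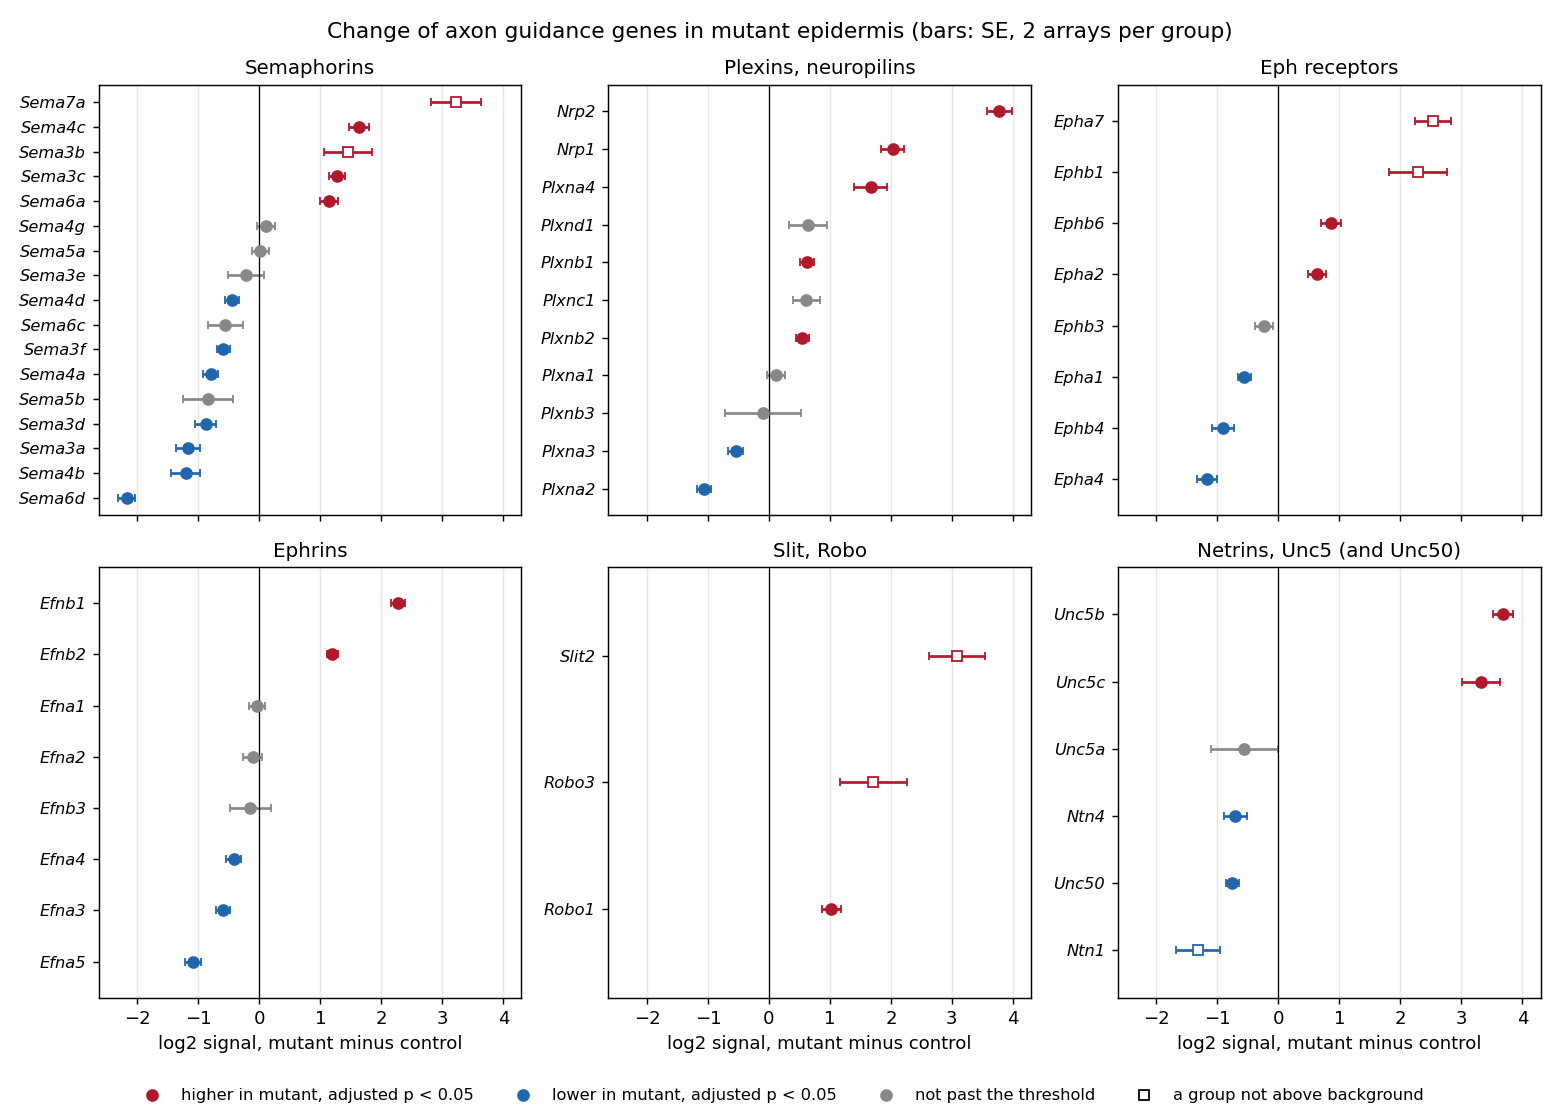
Change of each tested member, with its family in a panel of its own. The horizontal axis is log2 signal, mutant minus control, bars are SE of the fit over 2 arrays per group, filled red and blue points passed the threshold upward and downward, grey points did not pass, and open squares mark genes not above background in a group. Nrp2, Unc5b and Unc5c lie farthest to the right and Sema6d farthest to the left.

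The 4 arrays had median signals of 30.1 and 28.6 in mutants and 26.7 and 27.6 in controls. All 8 keratinocyte markers were tested, of which Itga6 was higher, 5 were lower and Krt5 and Trp63 did not pass, with summed signals of 24186 and 26808 in mutants and 34061 and 33608 in controls. Melanocyte markers were higher in mutants, 7 of 7, with summed signals of 5034 and 6143 against 1585 and 1579 in controls. Of 7 neuron markers 2 were higher, Tubb3 and Stmn2, 1 did not pass and 4 (Nefl, Nefm, Snap25 and Gap43) were dim. The summed signal of that list was 868 and 995 in mutants and 57.9 and 44.1 in controls. Of 6 Merkel cell markers Piezo2 and Rab3c were higher, Atoh1 did not pass and Krt20, Isl1 and Sox2 were dim, and the sums were 258 and 321 in mutants against 62.0 and 64.4 in controls. Of 6 Schwann cell markers 3 were tested, of which Sox10 and Fabp7 were higher and Erbb3 lower, with sums of 1205 and 1109 in mutants and 1323 and 1296 in controls. Of 7 endothelial markers 6 were dim and the other, Kdr, did not pass, with sums of 63.1 and 60.4 in mutants and 58.9 and 84.4 in controls. Of 6 immune markers none passed and 4 were dim, with sums of 69.7 and 77.4 in mutants and 101 and 106 in controls. Of 8 dermal fibroblast markers 6 were tested: Dcn was higher, Col1a2 was lower and 4 did not pass, while Pdgfra and Twist2 were dim. Their sums were 4472 and 4945 in mutants and 4171 and 4897 in controls, and Col3a1 stood at 381 in control 2 against 22.9 in control 1. Such sums lean on the brightest genes of a list and do not measure the amount of a cell type. In mutant 1 Erbb3 stood at 972 in the Schwann cell sum, Tubb3 at 765 in the neuron sum and Dcn at 3444 in the fibroblast sum. Axon guidance genes are expressed by several of these cells, and the part of the melanocyte, neuron and Merkel cell markers in the changes below was not tested. In whole epidermis, fewer cells of a type and less RNA per cell cannot be told apart.

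Both neuropilins rose strongly, and every probe set of each passed. Nrp2, the co-receptor preferred by Sema3f, had signals of 1075 and 1258 in mutants, against 68.0 and 106 in controls, a log2 rise of 3.78 ± 0.20 (SE, 2 arrays in each group; limma adjusted p = 7.54e-06). By the brightest probe sets its rise was the largest among the tested members, but Unc5b rose more without control 1 (3.93, against 3.46 for Nrp2) and with the median of a gene's probe sets (3.89, against 3.40). Its other 3 probe sets rose by 2.76 to 3.52. Nrp1, the co-receptor of Sema3a that also binds Vegfa, had signals of 279 and 242 in mutants, against 54.6 and 74.0 in controls. This was a rise of 2.03 ± 0.19 (limma adjusted p = 0.000118). Rises of 1.65 to 2.26 were found on the remaining 3. The groups lay far apart for both genes.

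The promoter of Nrp2 is shown because every probe set of Nrp2 rose and its window holds a core motif of TCF/LEF, the DNA-binding partners of beta-catenin. The motif CTTTGA or its reverse complement TCAAAG was searched on both strands in RefSeq windows of 300 bases, 250 before to 50 after each transcript start, of the GRCm38.p6 assembly. Of the 23 members past the threshold by at least 2-fold, 19 had a window, and 2 of these held the motif, Nrp2 and Sema6d. The share of windows with the motif was lower among the 23 windows of these genes, 8.70%, than among all 32851 windows, 16%, a difference that was not tested. The 250 bases before the start of Nrp2 lie on the plus strand at chr1:62703067-62703316, and the capitals mark the motif, which begins 146 bases before the start.
Nrp2: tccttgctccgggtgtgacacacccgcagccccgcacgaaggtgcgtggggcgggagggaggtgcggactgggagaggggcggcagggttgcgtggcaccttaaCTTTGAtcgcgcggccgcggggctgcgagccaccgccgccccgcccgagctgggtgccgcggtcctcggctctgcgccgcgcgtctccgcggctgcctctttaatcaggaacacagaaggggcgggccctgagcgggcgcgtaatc
In Sema6d, which fell, the motif stood after the transcript start in 1 of 2 windows, and the windows of Unc5b, Unc5c, Efnb1, Nrp1 and Slit2 held none. A match describes letters in these windows and not binding.

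Plexins are the signalling receptors of semaphorins. Of 9 tested plexin genes 3 rose, 2 fell and 4 did not pass. Plxna4, a receptor of class 6 semaphorins and a partner of neuropilins, had signals of 81.1 and 57.9 in mutants, against 21.5 and 21.6 in controls, a rise of 1.67 ± 0.27 (limma adjusted p = 0.00229). Its second tested probe set did not pass (limma adjusted p = 0.0516). Plxna2, a receptor of Sema6a, went the other way, with signals of 183 and 178 in mutants and 375 and 377 in controls. It fell by 1.06 ± 0.11 (limma adjusted p = 0.00025), and 3 further probe sets also fell. Plxna3 fell by 0.54 ± 0.13 (limma adjusted p = 0.0112), and leaving out control 2 or mutant 2 ended that call. Plxna1 had signals of 425 and 552 in mutants and 407 and 490 in controls, with overlapping groups and a difference of 0.12 ± 0.15 (limma adjusted p = 0.579). Another probe set of Plxna1 fell by 0.54, so its probe sets disagree. The A plexins thus held 1 rise, 2 falls and 1 gene that did not pass.

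Of the 3 B plexins 2 rose and 1 did not pass. Plxnb1 and Plxnb2 are receptors of class 4 semaphorins, while Plxnb3 is paired here with Sema5a. Plxnb1 had signals of 415 and 406 in mutants, against 251 and 284 in controls, and rose by 0.62 ± 0.12 (limma adjusted p = 0.0042), while its second probe set did not pass. Plxnb2 had signals of 1825 and 1525 in mutants, against 1167 and 1115 in controls, and rose by 0.55 ± 0.11 (limma adjusted p = 0.00537), a call lost when the fit assumed no trend of variance with intensity. Plxnb3 was near background, at 20.9 and 8.55 in mutants and 10.1 and 20.3 in controls, and did not pass. Plxnc1, the receptor of Sema7a, had signals of 168 and 203 in mutants and 151 and 96.3 in controls, with a difference of 0.61 ± 0.22 (limma adjusted p = 0.0628). Of its 5 tested probe sets 2 rose, by 0.75 and 0.93, and 3 did not pass. Plxnc1 was also past the threshold without control 1 (0.94, limma adjusted p = 0.0112). Plxnd1, the receptor of Sema3e, had signals of 33.8 and 49.2 in mutants and 24.4 and 27.9 in controls and did not pass (0.64 ± 0.31, limma adjusted p = 0.135).

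Among the 17 tested semaphorins 5 rose, 7 fell and 5 did not pass. Class 3 semaphorins, the secreted members, split into opposite directions. Sema3c, a ligand of both neuropilins, had signals of 285 and 309 in mutants, against 126 and 120 in controls, and rose by 1.27 ± 0.13 (limma adjusted p = 0.000182). Its other probe set rose by 1.32. Sema3b was tested on 1 of its 3 probe sets, and the others were dim with overlapping groups. On the tested probe set it had signals of 29.6 and 29.5 in mutants, against 10.4 and 11.2 in controls, where it was not above background. It was at least 2.04-fold higher in mutants (limma adjusted p = 0.0216), but this no longer passed when control 1 or either mutant was left out. In a bound of this kind the brighter group's mean log2 signal is set against the dimmer group's, with each dim array raised to its 40th percentile where it lay below.

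The other class 3 semaphorins that passed fell. Sema3a, a repellent of sensory axons and the main ligand of Nrp1, had signals of 76.0 and 61.4 in mutants, against 176 and 134 in controls, and fell by 1.17 ± 0.20 (limma adjusted p = 0.00276). Its 3 probe sets all fell, by up to 1.71. Sema3f had signals of 327 and 289 in mutants, against 468 and 456 in controls, and fell by 0.59 ± 0.11 (limma adjusted p = 0.00481). The groups of Sema3f did not overlap on this probe set, but did on another one, which did not pass, and the call was lost when the median of its probe sets stood for the gene. Sema3d fell by 0.88 ± 0.18 (limma adjusted p = 0.00611), with a second probe set lower by 1.32. Sema3e had signals of 40.2 and 59.5 in mutants and 46.1 and 70.3 in controls, overlapping groups, and did not pass. Sema3g was dim.

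Class 4 semaphorins are transmembrane ligands, and here 1 rose and 3 fell of 5 tested. Sema4c, a ligand of Plxnb2, had signals of 314 and 382 in mutants, against 98.9 and 126 in controls, and rose by 1.63 ± 0.17 (limma adjusted p = 0.000209). Sema4a had signals of 352 and 312 in mutants, against 527 and 631 in controls, and fell by 0.80 ± 0.13 (limma adjusted p = 0.00202). Sema4d, a ligand of Plxnb1, had signals of 238 and 264 in mutants, against 348 and 333 in controls, and fell by 0.44 ± 0.12 (limma adjusted p = 0.0191). The fall of Sema4d was larger on its second probe set, 1.37, while on the brightest it was lost without either control and without mutant 1. Sema4b fell by 1.21 ± 0.23 (limma adjusted p = 0.00494). Its second tested probe set, not above background in mutants, did not pass (limma adjusted p = 0.123). Sema4g had signals of 312 and 248 in mutants and 262 and 253 in controls, overlapping groups, and did not pass, and Sema4f was dim. Sema4c was thus the only class 4 member past the threshold upward.

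Among the tested semaphorins the largest fall was that of Sema6d and the largest rise that of Sema7a. Sema6d, a transmembrane semaphorin that acts through Plxna1, had signals of 94.8 and 117 in mutants, against 462 and 490 in controls. It fell by 2.18 ± 0.14 (limma adjusted p = 2.1e-05). Of 2 further tested probe sets 1 fell by 2.30 and 1, not above background in mutants, was at least 2.78-fold lower. Its relative Sema6a, a ligand of Plxna2 and Plxna4, moved the other way, with signals of 168 and 169 in mutants and 73.9 and 79.2 in controls. Sema6a rose by 1.14 ± 0.15 (limma adjusted p = 0.000724), and of its other 2 probe sets 1 rose and 1 did not pass. Both arrays of a group agreed closely for these 2 class 6 genes. Sema7a, a ligand bound to the membrane by a lipid anchor, had signals of 67.2 and 46.4 in mutants, against 6.0 and 5.96 in controls, where it was not above background. It was at least 3.85-fold higher in mutants (limma adjusted p = 0.000643), while its other probe set was dim on all arrays. Sema5a had signals of 145 and 148 in mutants and 150 and 140 in controls, with overlapping groups and a difference of 0.01 ± 0.14. Sema5b (-0.84 ± 0.41) and Sema6c (-0.56 ± 0.29) did not pass, and Sema6b was dim.

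**Figure D2:**
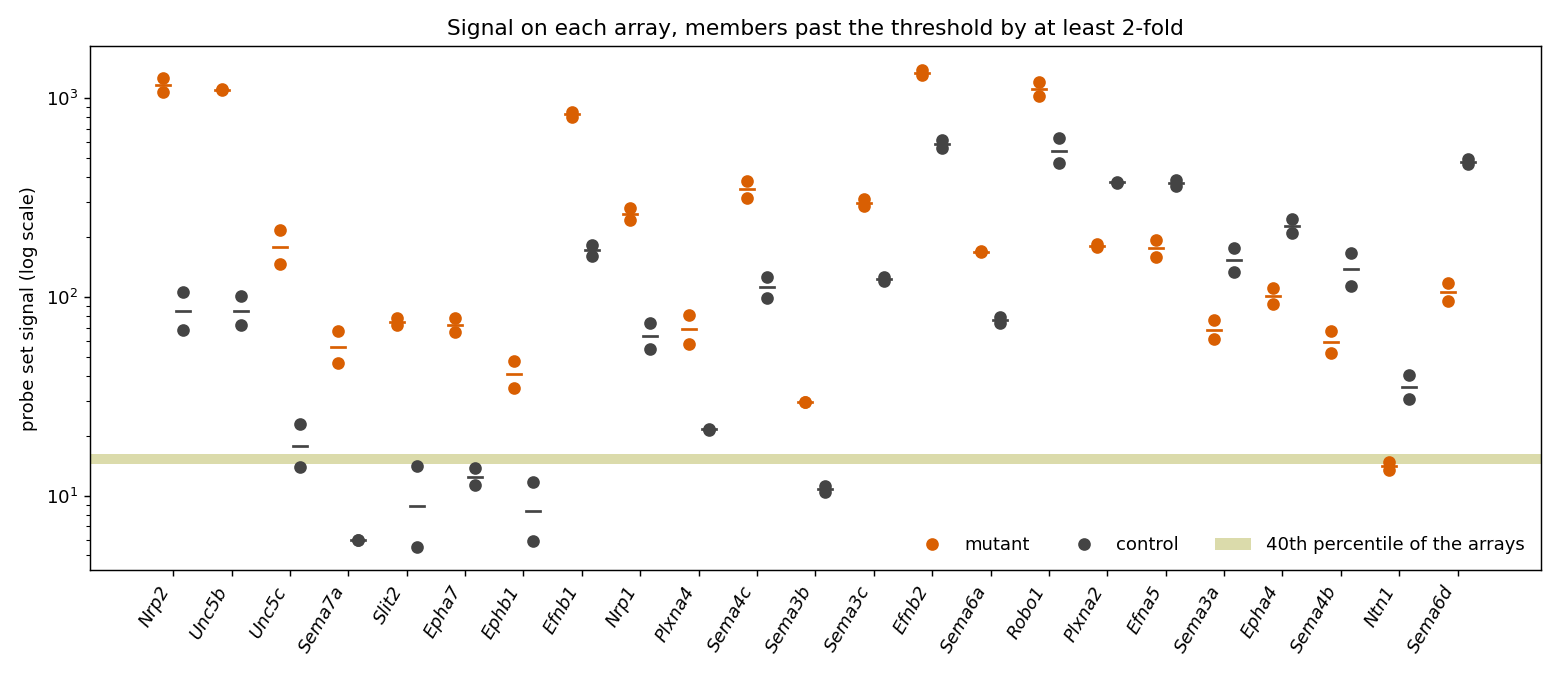
Signal of the 23 members past the threshold by at least 2-fold on each of the 4 arrays, on a log axis, with mutant arrays in orange and control arrays in grey. Short lines are geometric means, and the shaded band is the range of the 40th percentiles of the arrays. The mutant and control points of each gene do not overlap, which the choice of genes past this limit favours.

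Of 3 ephrin-B genes 2 rose and 1 did not pass, and of 5 ephrin-A genes 3 fell and 2 did not pass. A difference between the subfamilies was not tested, and in the fit with no intensity trend 1 ephrin was lower. Ephrin-B proteins span the membrane and ephrin-A proteins are held by a lipid anchor. Efnb1 had signals of 801 and 851 in mutants, against 160 and 182 in controls, and rose by 2.27 ± 0.12 (limma adjusted p = 5.65e-06). Its other probe sets rose by 1.53 and 1.99. Efnb2 had signals of 1384 and 1296 in mutants, against 611 and 558 in controls, and rose by 1.20 ± 0.10 (limma adjusted p = 6.24e-05). Of the other 3 probe sets of Efnb2 2 rose and 1 did not pass. Efnb3 had signals of 22.3 and 34.4 in mutants and 32.0 and 29.3 in controls, overlapping groups near background, and did not pass.

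Efna5 had signals of 159 and 194 in mutants, against 386 and 360 in controls, and fell by 1.09 ± 0.14 (limma adjusted p = 0.00061). Efna3 had signals of 417 and 465 in mutants, against 623 and 707 in controls, and fell by 0.59 ± 0.11 (limma adjusted p = 0.00479). Efna4 had signals of 251 and 255 in mutants, against 312 and 367 in controls, and fell by 0.42 ± 0.12 (limma adjusted p = 0.0307). The fall of Efna4 was the smallest of these, and it was lost without control 2 and without either mutant. Efna1 had signals of 173 and 185 in mutants and 190 and 177 in controls, overlapping groups, and did not pass, nor did Efna2 (-0.11 ± 0.15).

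Of 13 Eph receptor genes 8 were tested, of which 4 rose, 3 fell and 1 did not pass. Ephb2 had no probe set annotated to 1 gene, so it is not among the 13. Epha7 had signals of 78.3 and 66.8 in mutants, against 11.3 and 13.7 in controls, where it was not above background. It was at least 4.99-fold higher in mutants (limma adjusted p = 0.000414), and 2 further tested probe sets rose as well. Ephb1, a receptor of ephrin-B proteins, had signals of 47.6 and 34.8 in mutants, against 11.7 and 5.94 in controls, also not above background. It was at least 2.81-fold higher (limma adjusted p = 0.00686), on its only probe set. Ephb6, which lacks kinase activity, had signals of 143 and 160 in mutants, against 76.9 and 90.9 in controls, and rose by 0.86 ± 0.16 (limma adjusted p = 0.00492). Epha2, a receptor of ephrin-A1 in epithelia, had signals of 357 and 290 in mutants, against 196 and 221 in controls, and rose by 0.63 ± 0.14 (limma adjusted p = 0.01). The call of Epha2 was lost without control 1 and without mutant 1.

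The Eph receptors that fell included Epha4, which binds ephrins of both subfamilies. Epha4 had signals of 111 and 92.3 in mutants, against 247 and 210 in controls, and fell by 1.17 ± 0.16 (limma adjusted p = 0.000901). Its 4 tested probe sets all fell. Ephb4, the receptor of ephrin-B2 on veins, had signals of 60.8 and 77.6 in mutants, against 127 and 130 in controls, and fell by 0.91 ± 0.18 (limma adjusted p = 0.00593). Epha1, an epithelial Eph receptor, fell by 0.56 ± 0.11 (limma adjusted p = 0.00551), with a second probe set lower by 1.18. Ephb3 had signals of 198 and 229 in mutants and 229 and 277 in controls, groups that just overlapped, and did not pass. Epha3, Epha5, Epha6, Epha8 and Epha10 were dim, with signals of at most 15.9.

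Of 7 Slit and Robo genes 3 were tested, and these rose. Slit2 and Robo3 were not above background in controls and passed the filter through the mutant arrays alone. For these genes the filter itself favoured a rise, and Robo1 alone was above background in both groups. Slit2 had signals of 78.2 and 71.7 in mutants, against 5.54 and 14.1 in controls, where it was not above background. It was at least 5.16-fold higher in mutants (limma adjusted p = 0.00151), and 2 further probe sets were dim, 1 of them at 34.0 and 15.2 in mutants against 0.822 and 0.711 in controls. Robo1, a receptor of Slit2, had signals of 1195 and 1023 in mutants, against 469 and 629 in controls, and rose by 1.03 ± 0.15 (limma adjusted p = 0.00138). Of its other probe sets 1 rose by 1.66 and 1 was at least 1.92-fold higher, being not above background in controls. Robo3 had signals of 21.2 and 19.0 in mutants, against 6.27 and 5.98 in controls, and was at least 1.39-fold higher (limma adjusted p = 0.041), a call lost without any 1 of the 4 arrays. Slit1, Slit3, Robo2 and Robo4, the last a receptor of endothelial cells, were dim.

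The netrins fell while 2 of the Unc5 receptors rose. Ntn1, the first described vertebrate netrin, had signals of 14.7 and 13.4 in mutants, where it was not above background, against 40.4 and 30.5 in controls. It was at least 2.22-fold lower in mutants (limma adjusted p = 0.0213), a call lost without either control, and its second probe set did not pass. Ntn4, a netrin of basement membranes, had signals of 56.6 and 53.6 in mutants, against 97.5 and 83.4 in controls, and fell by 0.71 ± 0.19 (limma adjusted p = 0.0199). The call of Ntn4 was lost without control 1 and without mutant 2, and its other probe set fell by 1.51. Unc5b had signals of 1090 and 1103 in mutants, against 101 and 72.2 in controls, and rose by 3.69 ± 0.16 (limma adjusted p = 3.2e-06). Its other probe set rose by 4.09. Unc5c had signals of 217 and 146 in mutants, against 13.9 and 22.8 in controls, and rose by 3.32 ± 0.31 (limma adjusted p = 0.000124), with a second probe set higher by 3.01. Control 1 of Unc5c lay below that array's 40th percentile of 14.4, which leaves the size of the rise uncertain. Unc5a, at 21.1 and 9.99 in mutants and 15.0 and 30.5 in controls, had overlapping groups and did not pass, and Unc5d was dim. Unc50, at 609 and 536 in mutants and 1003 and 932 in controls, fell by 0.76 ± 0.11 (limma adjusted p = 0.000994) and is counted among the 18 falls, which are 17 without it.

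Receptors and ligands differed in their counts. Receptor genes numbered 24 tested, with 13 rises, 5 falls and a median change of 0.63, or 0.62 with genes below background at their bound. Ligand genes numbered 28 tested, with 8 rises, 12 falls and a median of -0.32. Over all genes tested 20.6% were higher and 24.5% lower. Among the rises counted here, the receptors Epha7, Ephb1 and Robo3 passed the filter through the mutant arrays alone. So did the ligands Sema3b, Sema7a and Slit2, while Ntn1, among the falls, passed it through the control arrays alone. A difference between ligands and receptors as classes was not tested. Secreted ligands gave 3 rises and 5 falls of 9 tested, and membrane-bound ligands 5 and 7 of 19.

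Of 36 textbook ligand and receptor pairs, 31 had both partners tested. In the others a partner was dim, or was Ephb2, which had no probe set annotated to 1 gene. Both partners rose in 6 pairs and both fell in 2. The partners moved in opposite directions in 11 pairs, with the ligand lower and the receptor higher in 8 and the reverse in 3. In those 8, the calls of Ntn1, Sema4d, Sema3f, Efna4, Epha2 and Plxnb2 were each lost in 1 or more alternative fits. So were those of Sema3b and Plxnb2 in pairs that both rose and of Efna3 in a pair that both fell. The calls in the 3 reverse pairs held in every alternative fit. Each pair was set side by side from the values above, several pairs share a gene, and no test was made of a pair. Ntn1 and Sema4d recur among the 8 with the ligand lower. Of all genes tested, 20.6% were higher and 24.5% lower. The pairs in which both rose were Sema3c with Nrp1 and with Nrp2, Sema3b with Nrp2, Sema4c with Plxnb2, Sema6a with Plxna4, and Slit2 with Robo1. Both partners fell in the pairs of Efna3 and Efna5 with Epha4. Among the opposed pairs Ntn1 was lower while Unc5b and Unc5c were higher, and Sema3a was lower while Nrp1 was higher. Neogenin, encoded by Neo1 and a further netrin receptor, rose by 0.46 ± 0.13 (limma adjusted p = 0.0267). Lying outside the rule, Neo1 was not followed through the alternative fits. In the reverse sense, Efnb2 was higher while Ephb4 and Epha4 were lower, and Sema6a was higher while Plxna2 was lower. Sema7a was higher while Plxnc1 did not pass, and Sema6d was lower while Plxna1 did not pass.

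**Figure D3:**
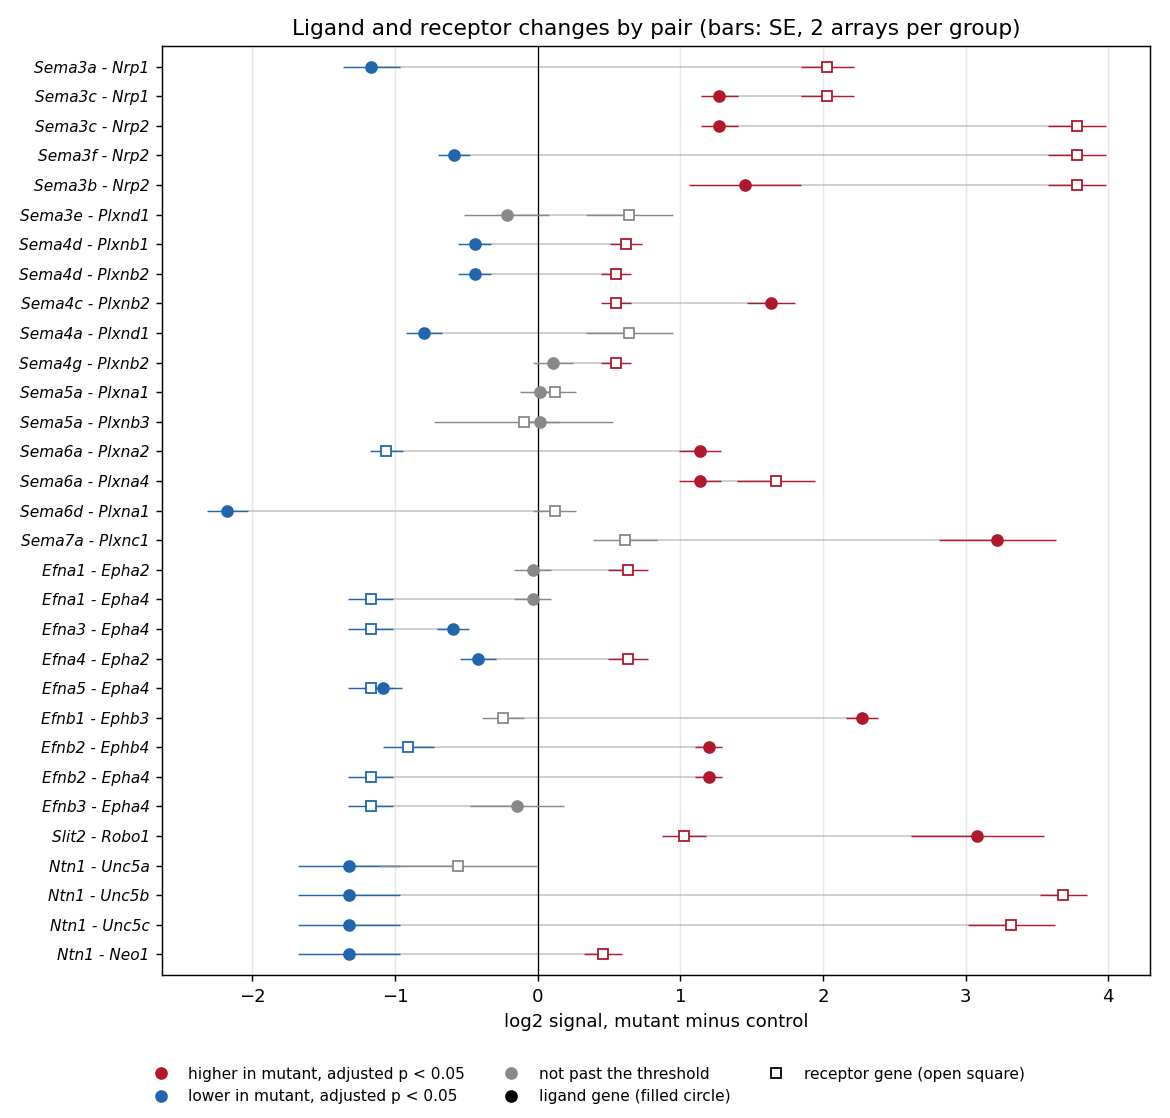
Changes of ligand (filled circle) and receptor (open square) genes in the 31 pairs with both partners tested. The horizontal axis is log2 signal, mutant minus control, bars are SE over 2 arrays per group, and red, blue and grey mark genes higher, lower and not past the threshold. The widest gaps are those of Ntn1 with Unc5b and Unc5c, with the ligand left of 0 and the receptor right of it.

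Genes of the same pathways outside the families were read from lists chosen with earlier results of these data known. Of 18 tested co-receptors and further ligands or receptors 5 were higher and 5 lower, while 8 missed the threshold (median 0.08). Over all genes tested 20.6% were higher and 24.5% lower, with a median of -0.06, and the list was not tested against them. Ntng1, a lipid-anchored netrin relative, had signals of 225 and 182 in mutants, against 19.8 and 11.1 in controls, and rose by 3.77 ± 0.30 (limma adjusted p = 5.99e-05). Gpc1, a glypican that binds Slit proteins, rose by 2.51 ± 0.11 (limma adjusted p = 3.38e-06), and Adgrl3, a latrophilin that binds Flrt proteins, by 1.51 ± 0.19. Rgma, a repulsive guidance ligand of neogenin, fell by 3.08 ± 0.34 (limma adjusted p = 0.0003), and its relative Rgmb fell by 2.70 ± 0.11 (limma adjusted p = 2.63e-06). Flrt1, of the family that binds Unc5 receptors, fell by 3.10 ± 0.21, and Met, a receptor kinase that can partner B plexins, by 1.36 ± 0.15. Dcc, at 23.0 and 17.1 in mutants and 25.0 and 23.4 in controls, did not pass.

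Intracellular effectors numbered 39 tested: 16 were higher, 11 lower and 12 not past the threshold (median 0.44). The shares over all genes tested were 20.6% higher and 24.5% lower, with a median of -0.06, and this list was not tested against them either. Genes of collapsin response mediators, which act downstream of Sema3a in neurons, rose where tested, while Dpysl4 and Crmp1 were dim: Dpysl2 by 1.42 ± 0.16, Dpysl3 by 2.33 ± 0.15 and Dpysl5 by 0.90 ± 0.21 (limma adjusted p = 0.000392, 1.88e-05 and 0.012). The 3 Mical genes, encoding oxidoreductases that act on actin downstream of plexins, rose by 1.28 to 2.06. Fyn, a kinase downstream of plexins and Eph receptors, rose by 2.10 ± 0.13. The Slit-Robo GTPase activators moved apart, with Srgap1 higher by 1.22 ± 0.14, while Srgap2 fell by 1.78 ± 0.13 and Srgap3 fell by 1.74 ± 0.34. Tiam1, a Rac activator used by ephrins, fell by 0.89 ± 0.10. Some of these effectors, Dpysl3 among them, are best known from neurons. Of the neuron markers Tubb3 and Stmn2 were higher, Prph did not pass, and Nefl, Nefm, Snap25 and Gap43 were dim. The part of neurons in the effector changes was not tested.

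Probe sets of the same gene were compared as a check on the array. Of 151 probe sets 112 were tested, of which 41 were higher, 40 lower and 31 not past the threshold, where 39.4% of all tested probe sets passed, 18.9% upward and 20.5% downward. Among the 35 genes read by more than 1 tested probe set, 21 had every one past the threshold in the same direction, 9 had some past and some not, and 5 had none past. None had probe sets past the threshold in opposite directions. Probe sets of a gene share the same 4 RNA samples and are not replicates.

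**Figure D4:**
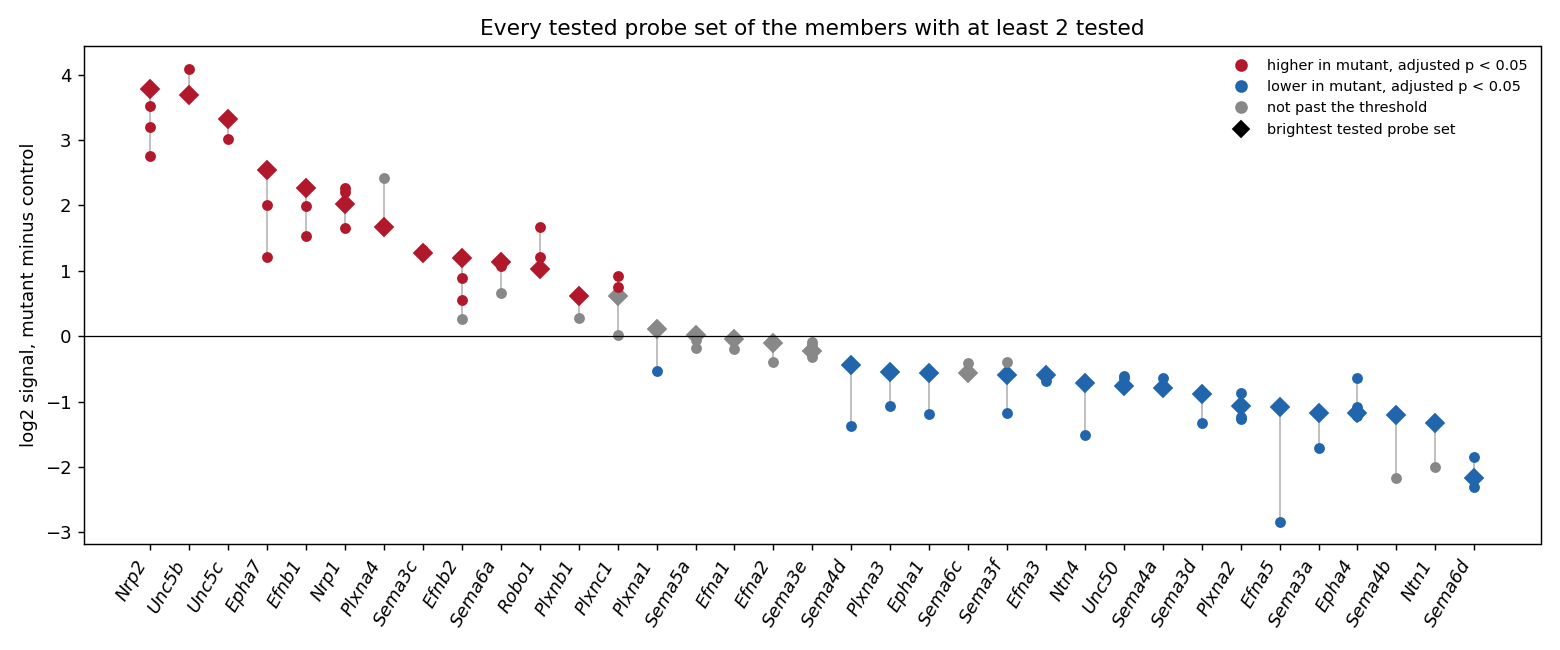
Change of every tested probe set of the 35 members with at least 2 tested. The vertical axis is log2 signal, mutant minus control, diamonds are the brightest probe sets that stood for their gene, and red, blue and grey mark higher, lower and not past the threshold. Plxna1 and Sema5a have probe sets on both sides of 0, and of these only that of Plxna1 below 0 passed.

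The authors' deposited table, made from the same arrays with GCRMA, listed 56 of the 151 probe sets (37.1%), from 29 genes, against 14.0% of all array probe sets. In the authors' deposited table, probe sets numbering 30 were higher in mutants and 26 lower, where 7.04% of all array probe sets were listed as higher, and each of the 56 had the sign of the limma value here. It gave the brightest probe set of Nrp2 as 34.7-fold higher in mutants, with ratios to the control mean of 33.0 and 36.0 in mutants and 0.880 and 1.12 in controls. The authors' deposited table gave that of Unc5b as 31.1-fold and of Unc5c as 35.5-fold higher, and that of Sema6d as 8.6-fold lower in mutants. The deposited signals were 13.7-fold higher for Nrp2, 12.9-fold higher for Unc5b and 4.52-fold lower for Sema6d. Listing in the authors' deposited table required a difference of at least 2-fold, which by itself favours a larger fold there and a shared sign. Among 23 listed brightest probe sets above background in both groups, 22 had a larger fold in the authors' deposited table than in the signals, Efnb2 being the exception. Of those below background in a group, Sema7a was 2.97-fold higher in the authors' deposited table, less than the bound of 3.85 from the signals, and Ntn1 was 2.16-fold lower, less than the bound of 2.22. Slit2 was 5.71-fold higher and Epha7 7.04-fold higher in the authors' deposited table, above their bounds.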

How the data were processed

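The 2 mutant and 2 control arrays were grouped by their titles. Signal intensity values as deposited came from GCOS and MAS5 according to the submitters' processing notes, which name no version. These deposited intensity values were linear, with a mean of 150.0 on every array after trimming 2% at each end, and were not normalized again. Per the file headers, the second deposited table held ratios from GCRMA values, for probe sets called Present on at least 2 arrays and differing at least 2-fold; the fold there divides control by mutant and is given inverted here. Per the instrument files, the arrays shared 1 station, 1 scanner and 1 scan day, and each ran on a fluidics module of its own, 4 in all. No genome build is named for the arrays.

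After removal of 64 array controls from 45101 probe sets, 28434 were tested and 16603 were dim. Names came from the platform annotation, in which 34945 probe sets named 1 gene, 932 several and 9160 none, updated by Entrez identifier to GRCm38.p6 (99.4% matched; no member changed). Log2 signals were compared, mutant minus control, with limma 3.58.1 in R 4.3.3 (lmFit, eBayes with an intensity trend), two-sided, and p-values were adjusted by Benjamini-Hochberg over all 28434. Errors of changes are SE of the fit. The labels name separate embryos. An exact permutation test of 2 against 2 arrays cannot go below 0.333, and the number of arrays limits the precision. Where neither array of a group exceeded its own 40th percentile, the probe set was not above background in that group. Array signals are given for up to 5 members a family past the threshold with the largest changes and for members of pairs with both partners tested; other members are given by their change. The members, lists, pairs and motif were chosen with earlier results of these data known. Alternatives changed the scaling, the filter, an offset of 16, the trend, a replicate block, the probe set rule and each array in turn. A comparison without Unc50 was added after the data were seen.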

Additional observations from a re-analysis of the deposited data

How the results depend on the processing

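Of 39 called members, 27 passed in the same direction under each of the 12 refits in which they were tested, 17 of them higher, and 12 lost the call under 1 or more. No called member changed sign under any refit or in the authors' deposited ratios, which list 26 of them. Losses were 7 without the intensity trend (Efna3, Efna4, Epha1, Epha2, Plxna3, Plxnb2 and Sema4d), 2 with the median of the probe sets (Ntn1 and Sema3f), 1 each (Robo3) with median centring, with quantile normalization, without the filter and with the replicate block, and 5 or 6 with 1 array left out; the cause was not tested. Without the trend 1 ephrin and 1 plexin or neuropilin gene were lower (3 and 2 in the fit as reported). With the filter at the 60th percentile, which tests fewer genes (42), 3 semaphorins were higher in place of 5. With 1 array left out, netrin and Unc5 falls ranged from 1 (without control 1) to 3, and plexin and neuropilin falls from 1 (without control 2 or mutant 2) to 2. With 1 array left out, members higher ranged from 18 to 20 and lower from 14 to 16. Plxnc1 passed with the offset, with the replicate block, without control 1 and with the median of its probe sets. Median centring moved the median over all probe sets to -0.14, against -0.03, and left 20 members higher and 18 lower.

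The members whose sign turned had not passed in the fit as reported nor under these settings. With 1 array left out, Efna1 ranged from -0.085 to 0.013 (0.013 without control 1, 0.01 without mutant 1) and Efnb3 from -0.46 to 0.17 (0.17 without mutant 1). Sema3e ranged from -0.52 to 0.087 (0.087 without control 2, 0.064 without mutant 1) and Plxnb3 from -0.74 to 0.55 (0.40 without control 2, 0.55 without mutant 2). Plxna1 ranged from -0.070 to 0.31 (-0.015 without control 1, -0.070 without mutant 2), and was -0.21 with the median of its probe sets. Sema4g ranged from -0.058 (without mutant 1) to 0.27, and was -0.003 with median centring. Sema5a ranged from -0.036 (without control 2; -0.0013 without mutant 2) to 0.065, and was -0.097 with median centring and -0.058 with the median of its probe sets.

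The titles number the replicates but do not say whether embryos were paired. Deviations of mutant 1 and control 1 from their group means correlated at 0.0145 across probe sets. With so few arrays per group, that value cannot decide whether embryos were paired. With the replicate block 21 members were higher and 18 lower, as without it; Robo3 lost its call and Plxnc1 gained one. Genes near background have the least certain folds.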
